A study of Mus musculus with 11 samples.

Results

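The 40 genes described here encode the enzymes that break down glucose in glycolysis, those of the pentose phosphate pathway, those that store and release glycogen, the enzymes that set the level of fructose-2,6-bisphosphate, the glycerol-3-phosphate dehydrogenases and the neuronal glucose transporter Slc2a3. They were chosen by name, as a list of enzymes with no rule on their values, although earlier results of these data were known, and all 40 were found among the 36666 genes of the count table, with Pkm listed there as Pkm2. Poly(A)+ RNA from the cerebrum of 11 male C57/Bl6 mice aged 1 year was sequenced, each library from a different mouse. The 7 mutator mice carried 2 copies of the D257A allele of Polg (D257A/D257A), the catalytic subunit of the polymerase that copies mitochondrial DNA. The allele is a knock-in substitution in the germ line that removes proofreading in every tissue, so the counts do not check the genotype. The 4 controls were 3 WT/WT mice and 1 WT/D257A mouse (mouse 237), which carried 1 copy of the allele. The comparison asks whether the mRNAs of sugar metabolism differ between the cerebrum of mutator mice and that of controls.

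Glycolysis splits glucose into pyruvate and yields ATP without oxygen, and in the brain the pyruvate mostly feeds the mitochondria. Neurons and astrocytes use different isozymes at several steps, and glycogen in the brain lies mainly in astrocytes. The pentose phosphate pathway draws on glucose-6-phosphate to make NADPH, which keeps glutathione reduced, and ribose for nucleotides.

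No gene of the set passed the test for a difference between mutator and control mice. All 40 passed the filter on low counts, and 0 had an adjusted p under 0.05 (edgeR's quasi-likelihood test, Benjamini-Hochberg adjustment over 17983 genes), where 223 of all genes tested, 1.24%, did. The lowest adjusted p of the set was 0.234, for Pgm2, and DESeq2 likewise called 0 of the 40. Without adjustment, 4 had p under 0.05 (1 higher and 3 lower in mutators), which is 10% of the set beside 15.8% of all genes tested. No gene of the set had control and mutator mice that did not overlap, beside 2.62% of all genes tested. That share is too small for 0 of 40 to set these genes apart.

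The differences were small in size, and most were measured closely. The log2 fold changes ran from -0.36 (Pgam2) to 0.20 (Hk2), with a median of -0.02 beside 0.0014 over all genes tested. The median size of the change, ignoring sign, was 0.05 on the log2 scale, with a median SE of 0.05, beside 0.09 and 0.08 over all genes tested. The 95% interval of the change lay within 1.2-fold in either direction for 32 of the 40 genes and within 1.5-fold for 39, all but Pgam2. Values were lower in mutators for 28 genes and higher for 12, and this count of signs was not tested because the genes of a pathway share the same mice and may vary together. The number lower was 23 with the 3 WT/WT controls only, and it ran from 22 to 30 with each mouse left out.

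**Figure D1:**
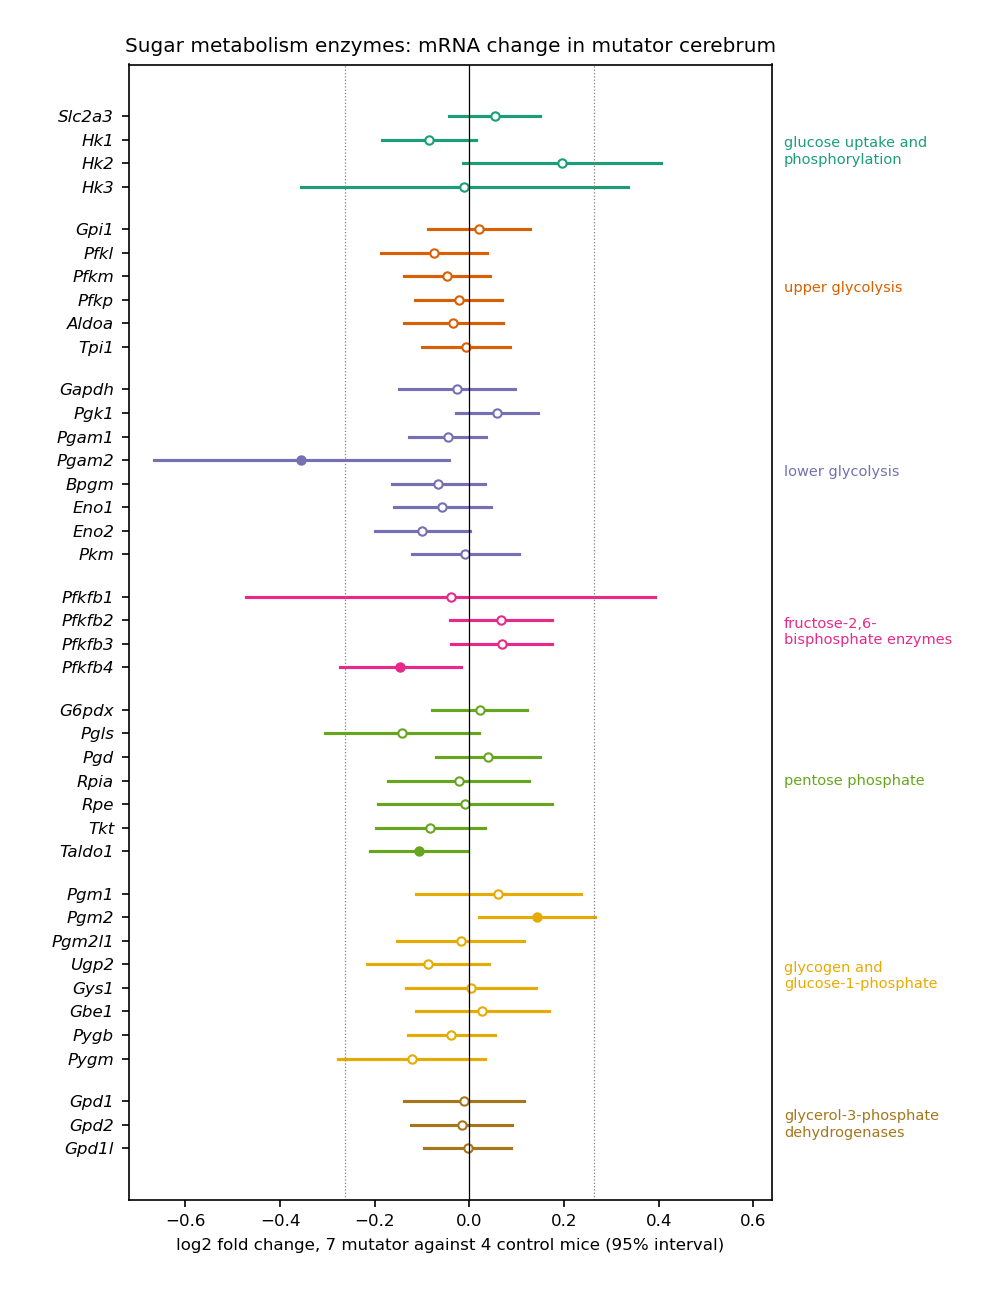
Log2 fold change of each of the 40 genes, 7 mutator against 4 control mice, with 95% intervals from edgeR, grouped by pathway. Filled points have an unadjusted p under 0.05 and dotted lines mark 1.2-fold in either direction. The intervals of 36 genes cross 0, and those of Pgam2, Pfkfb4, Taldo1 and Pgm2 do not.

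The levels of the 40 mRNAs spanned a wide range. Levels are compared between genes as CPM (counts scaled to the library total) per kb of exon (CPM per kb), since longer mRNAs collect more reads. The length used is that of all annotated exons of a gene joined, which can exceed the length of the mRNA made. Ranks between genes and all shares of isozymes per length rest on this choice, and the lengths of the mRNAs made were not measured. In controls, Gapdh was highest at 598 CPM per kb, followed by Pkm at 559 and Aldoa at 488. The lowest were Pfkfb1 at 0.194, Hk3 at 0.445 and Hk2 at 0.749 CPM per kb. Together the 40 genes took 0.972% to 1.07% of all gene counts in each mouse.

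**Figure D2:**
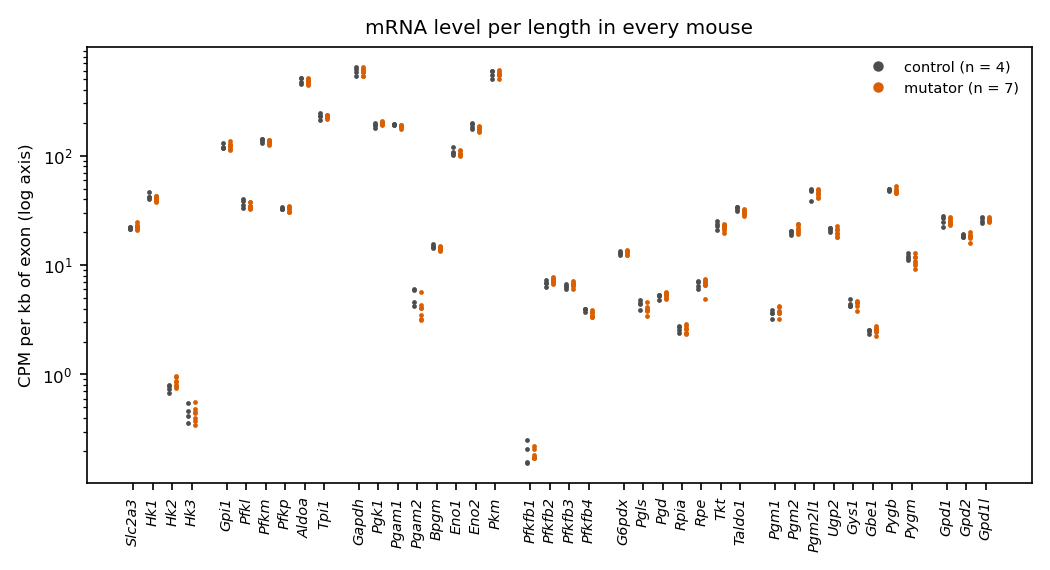
CPM per kb of exon of the 40 genes in each mouse, on a log axis, with 4 control mice on the left and 7 mutator mice on the right of each gene. The spread between genes, from 0.194 (Pfkfb1) to 598 (Gapdh) in controls, is far wider than the distance between the groups of any gene.

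Pkm makes 2 forms of pyruvate kinase, the enzyme of the last step of glycolysis, by including either of 2 exons of equal length. The M1 form is the one of muscle and mature neurons, and the M2 form is that of embryonic and dividing cells and of astrocytes. The exons are shown because the choice between them, and not the level of Pkm alone, sets which enzyme is made. Pkm lies at chr9:59504383-59527182 (mm9, + strand), with the M1 exon at chr9:59522836-59523002 and the M2 exon at chr9:59523375-59523541, both coding. Each is 167 bases long, and capitals mark the 64 positions at which they differ.
M1 exon: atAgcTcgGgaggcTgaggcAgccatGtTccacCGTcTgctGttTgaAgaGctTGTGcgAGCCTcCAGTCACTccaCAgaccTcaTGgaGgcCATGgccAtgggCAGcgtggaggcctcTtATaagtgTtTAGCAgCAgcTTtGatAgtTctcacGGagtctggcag
M2 exon: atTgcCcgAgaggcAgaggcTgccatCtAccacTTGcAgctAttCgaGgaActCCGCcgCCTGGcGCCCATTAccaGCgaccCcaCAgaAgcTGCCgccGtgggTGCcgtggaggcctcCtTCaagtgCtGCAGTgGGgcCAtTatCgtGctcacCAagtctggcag

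The share of the M1 exon did not differ detectably between the groups. Counts on exon bins were available for the 7 mutators and the 3 WT/WT mice. Of the counts on both exons, the M1 exon took 89.3%, 90.3% and 88.6% in the WT/WT mice 205, 239 and 246, and from 88.43% to 89.97% in the mutators, with a median of 89.1%. The groups overlapped over nearly their whole range. The means were 89.4% ± 0.82 (SD, n = 3) and 89.2% ± 0.63 (SD, n = 7), a difference of -0.22 percentage points (exact permutation test, 2-sided, p = 0.633, where the smallest p these groups allow is 0.00833). Leaving out each mouse in turn gave differences of -0.61 to 0.20 percentage points, and the highest of these, with the sign turned, came without mouse 239. The 2494 to 10025 counts on the 2 exons per mouse gave 95% binomial intervals (exact, Clopper-Pearson) of at most 2.53 percentage points in width, which cover counting error only. The M2 exon has a near-identical copy elsewhere in mm9 over all 167 bases (97.6% identity at best) and the M1 exon has 0 bases with such a copy, so the level of the share rests on how reads with more than 1 match were counted.

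**Figure D3:**
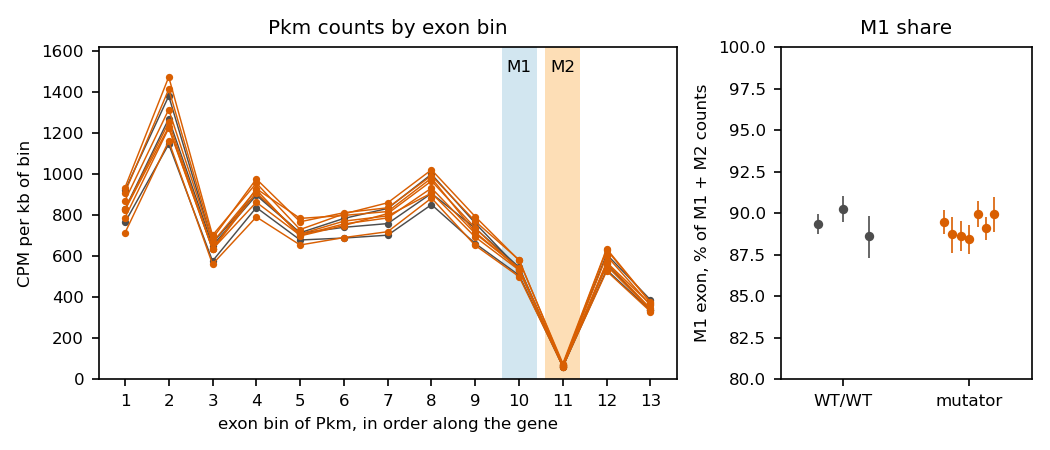
Left, CPM per kb (counts scaled to the bin total and the bin length) on the exon bins of Pkm in order along the gene, 1 line per mouse (3 WT/WT mice grey, 7 mutators orange), leaving out a bin of 3 bases. Right, the M1 share of M1 plus M2 counts per mouse with 95% binomial intervals, on an axis that starts at 80%. The M2 bin is far below the M1 bin in every mouse, and all shares lie between 88.4% and 90.3%, with the groups overlapping.

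Glucose uptake and its first phosphorylation held 4 genes, none of which passed the test. Slc2a3, the glucose transporter of neurons, was at 158 ± 3.67 CPM in controls (SD, n = 4) and 164 ± 9.24 CPM in mutators (SD, n = 7), which is 0.05 on the log2 scale. Hexokinase traps glucose in the cell, and Hk1, its main brain isozyme, which binds mitochondria, made 97.3% ± 0.29 of the hexokinase mRNA of Hk1, Hk2 and Hk3 per length in controls and 96.9% ± 0.46 in mutators. Hk1 was at 345, 394, 355 and 358 CPM in control mice 205, 237, 239 and 246 and from 320 to 363 CPM in mutators, with a median of 342. Its highest value was that of the WT/D257A mouse, and the groups overlapped. Hk2, the inducible isozyme of muscle and fat, was higher than the control mean in all 7 mutators, at 5.11 ± 0.47 against 4.47 ± 0.35 CPM, but its log2 fold change of 0.20 ± 0.10 (SE) had an unadjusted p of 0.0654 and an adjusted p of 0.355 in edgeR's quasi-likelihood test. The interval of Hk3, the isozyme of blood cells, ran from -0.36 to 0.34 on the log2 scale, on 51 to 186 counts per mouse.

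The steps from glucose-6-phosphate to the 3-carbon sugars held 6 genes, and the 95% interval of each lay within 1.2-fold. Phosphofructokinase commits sugar to glycolysis. Pfkm, its muscle and brain subunit, had the largest share of phosphofructokinase counts per length, at 66.4% ± 0.90 in controls and 66.4% ± 1.3 in mutators. Pfkm was at 397, 431, 418 and 436 CPM in control mice 205, 237, 239 and 246 and from 380 to 425 CPM in mutators, with a median of 410. The liver subunit Pfkl and the platelet subunit Pfkp took 17.7% and 15.9% in controls and 17.4% and 16.2% in mutators. These shares rest on annotated exon lengths of 3051 bases for Pfkm, 4395 for Pfkl and 9395 for Pfkp. Without scaling to length, the control means were 420.5 CPM for Pfkm, 309.6 CPM for Pfkp and 162 CPM for Pfkl. Gpi1, which turns glucose-6-phosphate into fructose-6-phosphate, and Tpi1, which interconverts the trioses, had log2 fold changes of 0.02 and -0.01. Aldoa, the aldolase of muscle and brain, had a mean of 1343 ± 84.4 CPM in controls against 1312 ± 67.0 CPM in mutators, or -0.03 on the log2 scale.

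The steps from glyceraldehyde-3-phosphate to pyruvate held 8 genes, of which 7 were lower in mutators and 1 had an unadjusted p under 0.05. Eno2, the neuronal enolase, made 63.4% ± 1.2 of the enolase mRNA per length in controls and 62.7% ± 0.62 in mutators, with the rest from Eno1, which is found in most cells. Eno2 was at 824, 922, 869 and 943 CPM in control mice 205, 237, 239 and 246 and from 778 to 876 CPM in mutators, with a median of 845. All 7 mutators were below the control mean and 3 were below every control, but the log2 fold change of -0.10 ± 0.05 (SE) had an unadjusted p of 0.0522 and an adjusted p of 0.322 in edgeR's quasi-likelihood test. Gapdh, Pgk1 and Pkm, which make NADH or ATP, had log2 fold changes of -0.03, 0.06 and -0.01, and the log2 interval of Pgk1, the only one higher in mutators, ran from -0.03 to 0.15. Bpgm, whose product loosens the hold of haemoglobin on oxygen in red blood cells, was at 53.5 ± 1.86 CPM in controls and 51.1 ± 2.10 CPM in mutators, a log2 fold change of -0.07. The summed level of 5 red blood cell markers in the same libraries ran from 57.5 to 198 CPM in controls and from 89.7 to 256.9 CPM in mutators, and the part of blood left in the tissue in the value of Bpgm was not tested.

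Phosphoglycerate mutase was the step with the largest difference of the set, in its minor isozyme. Pgam2, the muscle subunit (chr11:5701643-5703736, mm9, - strand), was at 3.58, 4.93, 3.88 and 5.09 CPM in control mice 205, 237, 239 and 246 and from 2.67 to 4.76 CPM in mutators, with a median of 3.39. Of the mutators, 5 lay below every control, while mouse 207, at 4.76 CPM, and mouse 217, at 3.66 CPM, lay within the control range. The log2 fold change was -0.36 ± 0.15 (SE), with an unadjusted p of 0.0277 and an adjusted p of 0.248 (edgeR's quasi-likelihood test), and without mouse 207 the adjusted p was 0.0737, the lowest of any gene of the set under any alternative. Markers of skeletal muscle were low in the same libraries and overlapped, with a summed level of 6.28 to 8.80 CPM in controls and 5.33 to 6.68 CPM in mutators, nearly all from Acta1 (log2 fold change -0.40, adjusted p = 0.0584 in the same edgeR test), while the muscle creatine kinase Ckm was near 0, at 0.214 CPM in controls and 0.169 CPM in mutators. Their part in the value of Pgam2 was not tested. Pgam1, the isozyme of brain, made 97.4% ± 0.45 of the mutase mRNA per length in controls and 97.9% ± 0.40 in mutators. Pgam1 was at 355, 346, 353 and 355 CPM in control mice 205, 237, 239 and 246 and from 320 to 350 CPM in mutators, with a median of 344, all 7 below the control mean, with a log2 fold change of -0.05 ± 0.04 (SE).

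Several of the most abundant members have near-identical copies elsewhere in the genome, so their counts are uncertain. Stretches of at least 100 bases with at least 97% identity to another place in mm9 covered 94.7% of the exon length of Pgam1, 71.2% of Pgk1, 58.7% of Pkm and 55.1% of Gapdh. They covered 30.5% of Tpi1, 25.4% of Eno1, 21.1% of Gpi1, 11.7% of Taldo1 and 9.52% of Rpia, at most 4.09% of any other gene of the set, and 0% of Aldoa, Eno2, Hk1 and Pgam2. How many reads of these genes were lost to or gained from the copies was not tested.

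The bifunctional enzymes that make and break fructose-2,6-bisphosphate, the strongest activator of phosphofructokinase, differed in sign. Pfkfb4 (chr9:108893947-108934737, mm9, + strand) was at 16.4, 16.4, 16.5 and 15.5 CPM in control mice 205, 237, 239 and 246 and from 13.8 to 15.95 CPM in mutators, with a median of 14.2. All 7 mutators were below the control mean and 6 were below every control, with mouse 207 alone, at 15.95 CPM, inside the control range. The log2 fold change was -0.15 ± 0.06 (SE), with an unadjusted p of 0.0269 and an adjusted p of 0.243 (edgeR's quasi-likelihood test). Pfkfb2, the heart isozyme and the highest of the 4 in cerebrum, was at 75.4, 70.6, 70.1 and 65.1 CPM in control mice 205, 237, 239 and 246 and from 68.3 to 78.7 CPM in mutators, with a median of 75.1. Pfkfb2 and Pfkfb3, the isozyme that favours synthesis most strongly, both had log2 fold changes of 0.07, with unadjusted p of 0.209 and 0.196. Per length, Pfkfb4 made 22.6% ± 0.69 of the mRNA of the 4 genes in controls and 20.1% ± 0.97 in mutators, Pfkfb2 39.6% and 41.0%, and Pfkfb3 36.6% and 37.9%, and these shares were not tested. Pfkfb1, the liver isozyme, had 23 to 78 counts per mouse, and its log2 interval of -0.47 to 0.39 was the widest of the 4.

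**Figure D4:**
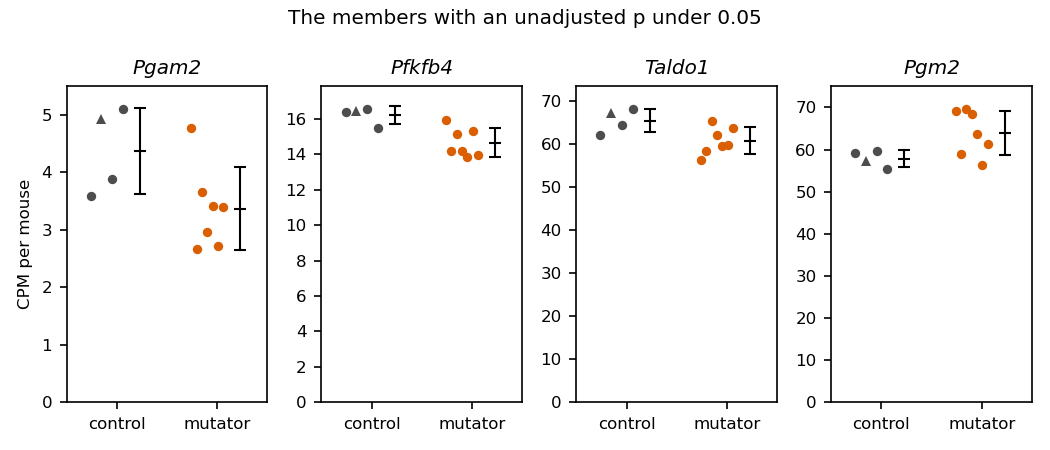
CPM in each mouse of the 4 genes of the set with an unadjusted p under 0.05, with the mean ± SD beside each group. Grey points are controls, with the WT/D257A mouse as a triangle, and orange points are mutators. Groups overlap in every panel, by a single mutator mouse for Pfkfb4.

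The pentose phosphate pathway held 7 genes, of which 2 were higher and 5 lower in mutators, none past the test. Taldo1, transaldolase of the non-oxidative branch (chr7:148578098-148588867, mm9, + strand), was at 62.0, 67.2, 64.4 and 68.0 CPM in control mice 205, 237, 239 and 246 and from 56.4 to 65.4 CPM in mutators, with a median of 59.7. Of the mutators, 5 lay below every control. The log2 fold change was -0.11 ± 0.05 (SE), with an unadjusted p of 0.0442 and an adjusted p of 0.304 (edgeR's quasi-likelihood test). Tkt, transketolase of the same branch, was at 152 ± 11.8 CPM in controls and 143 ± 9.25 CPM in mutators, a log2 fold change of -0.08 with an unadjusted p of 0.151. The enzymes of the oxidative branch that make NADPH, G6pdx and Pgd, had log2 fold changes of 0.02 and 0.04, with 95% intervals within 1.2-fold. Pgls, the lactonase between them, was at 16.5 ± 1.48 CPM in controls and 14.9 ± 1.41 CPM in mutators, a log2 fold change of -0.14 with an unadjusted p of 0.0821. The annotation merges Pgls with an overlapping gene, and reads shared by both cannot be assigned. Rpia and Rpe, the isomerase and epimerase of the pentose phosphates, had log2 fold changes of -0.02 and -0.01.

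Glycogen metabolism and the handling of glucose-1-phosphate held 8 genes, 4 higher and 4 lower in mutators. Phosphoglucomutase interconverts glucose-1-phosphate and glucose-6-phosphate. The gene listed as Pgm2 (ENSMUSG00000025791, chr4:99602019-99659899, mm9, + strand) is the main phosphoglucomutase, which RefSeq now names Pgm1, and the gene listed as Pgm1 (ENSMUSG00000029171) is the one now named Pgm2. The gene listed as Pgm2 was at 59.3, 57.4, 59.5 and 55.3 CPM in control mice 205, 237, 239 and 246 and from 56.2 to 69.5 CPM in mutators, with a median of 63.8. Of the mutators, 5 lay above every control, and their SD of 5.28 CPM was wider than the 1.98 CPM of controls. The log2 fold change was 0.14 ± 0.06 (SE), with an unadjusted p of 0.0248 and an adjusted p of 0.234 (edgeR's quasi-likelihood test). Pgm2l1, the relative that makes glucose-1,6-bisphosphate, led the 3 genes per length with 66.1% ± 2.5 in controls and 63.8% ± 3.1 in mutators. It was at 332, 270, 340 and 350 CPM in control mice 205, 237, 239 and 246 and from 290 to 345 CPM in mutators, with a median of 316, so that the WT/D257A mouse was the lowest of all 11.

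Of the enzymes that build and break glycogen, none had an unadjusted p under 0.05. Ugp2, which makes UDP-glucose, was at 65.2 ± 2.65 CPM in controls and 61.3 ± 5.73 CPM in mutators. Gys1, the glycogen synthase of muscle and brain, was at 21.2 ± 1.595 and 21.3 ± 1.56 CPM, and Gbe1, which adds branches, at 13.3 ± 0.60 and 13.5 ± 0.87 CPM, in controls and mutators. Pygb, the brain glycogen phosphorylase, made 80.4% ± 0.84 of the phosphorylase mRNA of Pygb and Pygm per length in controls and 81.4% ± 1.4 in mutators. Pygb was at 228, 240, 235 and 240 CPM in control mice 205, 237, 239 and 246 and from 220 to 252 CPM in mutators, with a median of 225. Pygm, the muscle phosphorylase that astrocytes also express, had a log2 fold change of -0.12 ± 0.07 (SE) with an unadjusted p of 0.117.

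The 3 glycerol-3-phosphate dehydrogenases, which pass reducing equivalents of glycolysis to the mitochondria or to lipid synthesis, lay near 0, with log2 fold changes of -0.01 for Gpd1, -0.02 for the mitochondrial Gpd2 and -0.0037 for Gpd1l. The 95% interval of each lay within 1.2-fold. Gpd1l and Gpd1 were near equal per length, with Gpd1l at 50.5% ± 2.6 of both in controls. Its share ran from 47.5% to 53.4% over all mice, so neither gene led in every mouse. Gpd1l was at 129, 123, 137 and 138 CPM in control mice 205, 237, 239 and 246 and from 125 to 139 CPM in mutators, with a median of 130.

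Individual mice differed in how many genes of the set they were highest or lowest for. Whether the genes moved together was not tested, and the same counts over all genes were not made. Among the controls, mouse 246 had the highest value for 18 of the 40 genes and mouse 205 the lowest for 16, while the WT/D257A mouse 237 was highest for 13 and lowest for 10. Among the mutators, mouse 236 was highest for 10 genes and lowest for 3, mouse 217 highest for 10 and lowest for 2, and mouse 211 lowest for 11 and highest for 6. Mouse 205 has the largest library of all 11 and mouse 246 the smallest. The number of genes with an unadjusted p under 0.05 varied most with the control mice. It was 8 without mouse 205, 1 without mouse 237 and 1 without mouse 246. In each case 0 genes had an adjusted p under 0.05. The share over all genes tested moved likewise. That share was 15.8% with all mice, 18.5% without mouse 205, 9.79% without mouse 237 and 11.9% without mouse 246.

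Other genes of the same pathways, outside the set, included 2 that passed the test. The list of 48 held isozymes and partners of the 40, of which 41 passed the filter, and 2 of these were called, 1 lower and 1 higher, beside the 1.24% of all genes tested. Hkdc1, a hexokinase-like gene next to Hk1 (chr10:61845885-61885239, mm9, - strand), was at 8.52, 12.3, 9.77 and 9.41 CPM in control mice 205, 237, 239 and 246 and from 5.63 to 7.88 CPM in mutators, with a median of 6.83. All 7 mutators lay below every control, and Hkdc1 fell by 0.57 on the log2 scale (SE 0.11, adjusted p = 0.0162 in edgeR's quasi-likelihood test). Phka1, the muscle-type regulatory subunit of phosphorylase kinase, which switches glycogen phosphorylase on (chrX:99709314-99839585, mm9, - strand), was at 34.5, 34.5, 34.8 and 33.4 CPM in control mice 205, 237, 239 and 246 and from 38.7 to 44.5 CPM in mutators, with a median of 40.2. All 7 mutators lay above every control, and Phka1 rose by 0.24 on the log2 scale (SE 0.05, adjusted p = 0.0191 in the same test). Without the WT/D257A mouse the adjusted p was 0.142 for Hkdc1, with a log2 fold change of -0.45, and 0.0669 for Phka1, with a log2 fold change of 0.25. The call of Phka1 was also lost without mouse 239 (adjusted p = 0.0518) and without mouse 246 (adjusted p = 0.0712).

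**Figure D5:**
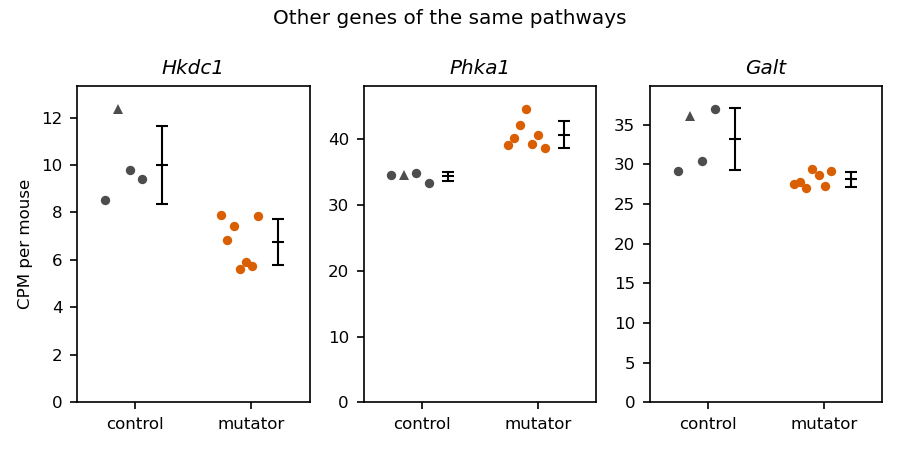
CPM in each mouse of Hkdc1, Phka1 and Galt, with the mean ± SD beside each group. Grey points are controls, with the WT/D257A mouse as a triangle, and orange points are mutators. The groups do not overlap for Hkdc1 and Phka1, and for Galt a mutator at 29.4 CPM lies above the lowest control at 29.2 CPM.

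Of the rest of that list, 3 genes had an unadjusted p under 0.05, all lower in mutators. Galt, which handles galactose-1-phosphate, was at 29.2, 36.1, 30.4 and 36.9 CPM in control mice 205, 237, 239 and 246 and from 27.0 to 29.4 CPM in mutators, a log2 fold change of -0.23 (SE 0.06, adjusted p = 0.0681 in edgeR's quasi-likelihood test). Galt had an adjusted p under 0.05 in DESeq2 and without mouse 205, among other alternatives. Gsk3a, a kinase that inhibits glycogen synthase, was at 155 ± 6.88 CPM in controls and 141 ± 6.59 CPM in mutators, a log2 fold change of -0.14 (adjusted p = 0.128 in the same edgeR test). Fbp1, the gluconeogenic bisphosphatase of liver and kidney, had 0 to 25 counts per mouse and is too low to read. The other subunits of phosphorylase kinase, Phka2, Phkb, Phkg1 and Phkg2, had log2 fold changes of 0.03, -0.09, -0.07 and -0.0017, with none past the test.

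At the level of exon bins, no bin of the set passed the test for a difference in usage. Of the 981 bins of the 40 genes, 738 in 38 genes passed the filter and 0 had an adjusted p under 0.05 (edgeR's diffSpliceDGE, adjusted over 206930 bins), beside 0.0237% of all bins. The bins of Pgls include those of the overlapping gene merged with it. With merged gene groups left out, 712 bins of the set were tested and 0 were called. On simulated counts in which some bins had been changed, the same test called more unchanged bins than its threshold allows. Those bins may lie in genes in which another bin had been changed, which was not tested. Whether the background share of 0.0237% is too high for the same reason was not tested either. At an unadjusted p under 0.05 there were 10 bins in 7 genes, or 1.36%, beside 1.9% of all bins. On the same bins limma's diffSplice called 0 as well, with 13 at an unadjusted p under 0.05, or 1.76%, beside 2.66% of all bins. The lowest p was that of a bin of Pfkp at chr13:6597541-6597984 (mm9), which took 0.162% ± 0.049 of the counts of the gene in WT/WT mice and 0.245% ± 0.055 in mutators, with ranges that overlapped. Its log2 difference in usage was 0.52, with an unadjusted p of 0.00174 and an adjusted p of 1 in diffSpliceDGE, on 12 to 108 counts per mouse.

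The libraries held 28249345 to 121182250 gene counts in controls and 37821243 to 91219204 in mutators. Mutator mouse 248 had 3.00 gene counts per aligned read, where the other 10 had 0.744 to 0.775, and whether the aligned reads listed for it cover the whole library is not given in the sources used here. Markers of neurons, astrocytes, oligodendrocytes, microglia and vessels were present in every library, with overlapping summed levels, and the only marker called was the platelet chemokine Ppbp (log2 fold change 3.83, adjusted p = 0.00483 in edgeR's quasi-likelihood test). Cerebellar markers summed to 4.35 and 7.07 CPM in mutator mice 211 and 217 and to 0.909 to 1.66 CPM in the other 9. Without these 2 mice the set again held 0 called genes, with 4 at an unadjusted p under 0.05, beside 14.1% of all genes tested. In bulk tissue, fewer cells of a type and less RNA per cell cannot be told apart.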

How the data were processed

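The authors aligned reads of 100 bp from both ends to mm9 with TopHat2 (2.0.6) and Bowtie2 (2.0.2.0), counted them on Ensembl genes with HTSeq (0.5.3p9) and deposited raw counts per gene for 11 mice, and raw counts on the exon bins of a flattened gene annotation for 10. The strand setting is not given in the sources used here, and a read that spans several bins is counted in each. The authors' DESeq and DEXSeq tables hold group means, fold changes and p-values and were not used, and protein ratios were not analysed here.

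The main test of gene counts was the robust quasi-likelihood fit of edgeR 4.0.16 (R 4.3.3), after filterByExpr and TMM scaling and with no covariate, with p-values adjusted by Benjamini-Hochberg over all genes tested and a threshold of 0.05. CPM were scaled with the TMM factors, and overlap of groups was read on log2 CPM with a prior count of 2. Exon bins were tested with diffSpliceDGE of edgeR, and limma 3.58.1, DESeq2 1.42.0 and sva 3.50.0 served alternatives. Intervals of the M1 share are 95% exact Clopper-Pearson intervals. Bins were placed with an annotation of mm9 later than the authors' release, whose bin numbers matched the files for 38 of the 40 genes, not for Tpi1 and Pfkfb3. Copies were found with BLAST+ 2.17.0. The tests were first run on simulated counts.

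Library totals ran from 28249345 to 121182250 gene counts. The members and lists were chosen with earlier results of these data known. Values per mouse are given for members with an unadjusted p under 0.05 and for the highest isozyme of each step, and of other genes and bins for those past the test, with an unadjusted p under 0.05 or, for bins, the lowest p. Replicates differed from each other by more than sampling noise. P-values judge the difference between groups against the spread between these mice, and no batch is given in the labels. No column of per-sample values was left out.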

Additional observations from a re-analysis of the deposited data

Results flagged for a closer look

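For each gene, the mouse furthest out in its group was examined by the ratio of its gap from the next mouse to the spread from lowest to highest, against Dixon's critical value (0.829 for 4 mice and 0.568 for 7). Of 90 groups tested, over the 40 genes and 5 other genes, 3 exceeded it, where chance gives about 4.5 (1 in 20). Rpe, the pentose phosphate epimerase, was lowest in mutator mouse 207 (0.608), at 15.3 CPM against 20.3 to 23.5 CPM in the other mutators, and its log2 fold change was 0.05 without that mouse, beside -0.01 with it. Pgam1, the brain phosphoglycerate mutase, was lowest in mutator mouse 248 (0.594), at 320 CPM against 338 to 350 CPM. Pfkfb4 was lowest among controls in mouse 246 (0.867), at 15.5 CPM against 16.4 to 16.5 CPM.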

How the results depend on the processing

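No gene and no exon bin of the set was called under any alternative run, which were DESeq2, scaling by RLE or the upper quartile, all genes unfiltered, a filter at a mean count of 10, only the WT/WT mice as controls, a covariate for the log2 total or for 1 surrogate variable, leaving out each mouse in turn and, for bins, limma's diffSplice, the same filter and merged gene groups left out. The alternatives without mutator mice 211 and 217, whose cerebellar markers were highest, and without mutator mice 207 and 240, whose mt-Co2 counts were highest, were chosen after seeing the data and also called none, with 4 and 3 genes at an unadjusted p under 0.05. That count was 4 in the analysis reported, 5 with DESeq2, 1 (Pgm2) with the 3 WT/WT controls only and 1 to 8 with each mouse left out. Over all genes with a p-value, the share under 0.05 was 15.8% in the analysis reported and 10.9% with DESeq2. It was 9.79% with the 3 WT/WT controls only and 9.79% to 18.5% with each mouse left out. Without mice 211 and 217 it was 14.1%, and without mice 207 and 240 it was 15.7%. With the 3 WT/WT controls only, 1 gene (Pgam1) had groups that did not overlap and 0 of the other pathway genes were called, and with each mouse left out these counts ran from 0 to 1 (Pgam1 without mouse 237, Pfkfb4 without mouse 207 or mouse 246) and from 0 to 3. Groups did not overlap for 3.33% of all genes tested with the 3 WT/WT controls only, and for 2.94% to 7.32% with each mouse left out. Of all genes tested, 223 were called in the analysis reported, 622 with DESeq2, 346 with no filter, 50 with the 3 WT/WT controls only and 50 to 412 with each mouse left out. The M1 share differed by -0.61 to 0.20 percentage points with each mouse left out, and by 0.20 without mouse 239. Genes with small changes turned sign, none of them called. With the 3 WT/WT controls only, the log2 fold changes were 0.016 for Gapdh, 0.015 for Gpd1, 0.017 for Hk3, 0.12 for Pfkfb1 and 0.020 for Pkm. They were 0.0019 for Gpd1 with 1 surrogate variable and 0.0013 for Gpd1l with upper-quartile normalization. Without mice 211 and 217 they were 0.012 for Gpd1, 0.015 for Gpd1l, 0.018 for Pkm and 1.91e-05 for Tpi1. Without mice 207 and 240 they were 0.031 for Gpd2, 0.047 for Hk3, 0.0073 for Pfkp, 0.012 for Pgm2l1 and 0.069 for Rpe. With each mouse left out they ran from -0.077 to 0.016 for Gapdh, -0.0044 to 0.053 for Gbe1, -0.076 to 0.033 for Gpd1, -0.034 to 0.020 for Gpd1l, -0.040 to 0.014 for Gpd2, -0.0053 to 0.063 for Gpi1, -0.020 to 0.056 for Gys1, -0.099 to 0.082 for Hk3, -0.14 to 0.12 for Pfkfb1, -0.094 to 0.022 for Pgm2l1, -0.056 to 0.020 for Pkm, -0.051 to 0.055 for Rpe, -0.060 to 0.012 for Rpia and -0.045 to 0.023 for Tpi1. The cause of these changes was not tested. No paired analysis was possible because the mouse numbers identify single animals, and the replicate numbers were given in accession order only. The counts were lowest for Pfkfb1, at 23 to 78 per mouse, and Hk3, at 51 to 186.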
